A study of Homo sapiens with 4 samples.

Results

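The sites described here are the places on chromatin where WDR5 was called in HSSY II cells only when WDR5 was being degraded. They were chosen by the WDR5 peak lists themselves: a site is a WDR5 peak of the MS67-treated cells with no WDR5 peak of the DMSO-treated cells within 1 kb, measured between peak edges. Of the 14123 WDR5 peaks called with MS67, 2694 met that rule, which is 19.1% (95% interval 18.4 to 19.7%), and the other 11429 lay within 1 kb of one of the 35605 WDR5 peaks called with DMSO. Intervals of shares are exact (Clopper-Pearson) and cover counting error only.

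HSSY II is an established human synovial sarcoma line that carries the SS18::SSX fusion oncoprotein. Cells received DMSO, the solvent control, or 2.5 µM MS67 for 4 days, and mouse NIH-3T3 cells were added to every sample as a spike-in. CUT&RUN, in which a nuclease tethered by an antibody releases the DNA fragments around the bound protein, was run for WDR5 and for SS18::SSX. Each of the 4 combinations of antibody and treatment is 1 library, so there is no replicate check of any difference between treatments, and no p-value between libraries is given. The WDR5 libraries differed in depth: background coverage was 0.1685 fragments per bp with MS67 and 0.3676 with DMSO, a ratio of 0.458, and the lowest summit called a peak held 3 fragments with MS67 and 4 with DMSO. The absence of a DMSO peak is therefore an absence of a call in 1 library, not a measured absence of WDR5.

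WDR5 is a WD40-repeat protein that holds together the KMT2 (MLL) complexes, which methylate lysine 4 of histone H3 at promoters and enhancers. It also binds the transcription factor MYC, and many of its best-known target genes encode ribosomal proteins. MS67 is a proteolysis-targeting chimera (PROTAC): one end binds WDR5, and the other recruits the VHL ubiquitin ligase, which marks WDR5 for the proteasome.

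The DNA under some of the sites is given here, picked by rank or by gene and not to represent the group. Most of these are promoter sites, although 2039 of the 2694 sites lay outside promoters, with a median GC content of 51.0%. The WDR5 site is not a strong one: its −log10 q of 2.65 was at the median of all sites. Each line gives the 200 bp around a peak summit (hg38, plus strand), and capitals mark a match to any of the 13 motifs counted further on. ZNF622 (chr5:16465506-16465705) and SSBP1 (chr7:141738388-141738587) are the highest-ranked promoter sites by q-value. RPL36A (chrX:101390721-101390920) is the highest-ranked ribosomal protein gene, and WDR5 (chr9:134135163-134135362) is the target of the degrader. The intron shared by DIPK2B and ENSG00000229491 (chrX:45187138-45187337) and the ERGIC2 intron (chr12:29380755-29380954) hold the highest-ranked sites outside promoters.
ZNF622: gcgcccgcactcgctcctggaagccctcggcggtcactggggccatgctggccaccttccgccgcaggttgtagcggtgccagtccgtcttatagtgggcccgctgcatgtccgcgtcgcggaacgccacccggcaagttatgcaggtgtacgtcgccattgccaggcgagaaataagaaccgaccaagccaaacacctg
SSBP1: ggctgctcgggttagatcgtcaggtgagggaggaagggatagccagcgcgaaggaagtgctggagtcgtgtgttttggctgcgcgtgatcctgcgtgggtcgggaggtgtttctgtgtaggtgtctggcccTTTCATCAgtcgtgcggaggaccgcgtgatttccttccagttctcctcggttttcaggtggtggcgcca
RPL36A: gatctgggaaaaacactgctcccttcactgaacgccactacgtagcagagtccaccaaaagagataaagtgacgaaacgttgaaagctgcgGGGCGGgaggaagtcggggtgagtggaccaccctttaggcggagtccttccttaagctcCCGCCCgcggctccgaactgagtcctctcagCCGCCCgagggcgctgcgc
WDR5: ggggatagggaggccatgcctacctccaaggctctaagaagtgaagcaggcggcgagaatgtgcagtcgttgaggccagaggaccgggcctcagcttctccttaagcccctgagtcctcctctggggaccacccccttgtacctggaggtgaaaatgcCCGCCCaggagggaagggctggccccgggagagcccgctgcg
DIPK2B intron: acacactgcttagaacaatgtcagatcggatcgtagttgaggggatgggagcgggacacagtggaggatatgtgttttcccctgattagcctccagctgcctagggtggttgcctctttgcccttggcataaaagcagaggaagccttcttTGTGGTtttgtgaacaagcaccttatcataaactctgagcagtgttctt
ERGIC2 intron: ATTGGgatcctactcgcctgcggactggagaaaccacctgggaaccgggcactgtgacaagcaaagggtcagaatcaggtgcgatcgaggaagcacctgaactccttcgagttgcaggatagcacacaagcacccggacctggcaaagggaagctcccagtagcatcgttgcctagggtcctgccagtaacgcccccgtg
The ZNF622 window had a GC content of 64.5% and 20 CpG dinucleotides, and held no match to the motifs. The RPL36A window held 3 matches of the SP/KLF box GGGCGG, and the WDR5 window held 1. The DIPK2B window had 3 CpG dinucleotides and a GC content of 48.5%, below the other 5 windows.

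The sites were shallow peaks. The median site had 7 fragments at its summit (range 3 to 31) over a local background of 0.553 fragments, a fold enrichment of 4.46 (range 2.86 to 9.19), a −log10 q of 2.65 (range 1.31 to 11.7) and a width of 181 bp (range 153 to 745 bp). The other MS67 peaks had medians of 9 fragments, a fold of 5.05, a −log10 q of 3.55 and a width of 248 bp. Summits of 5 or fewer fragments made up 1004 sites (37.3%, 95% interval 35.4 to 39.1%) and 1263 of the other MS67 peaks (11.1%). A −log10 q above 3 was reached by 1092 sites (40.5%), and one above 5 by 148 sites (5.49%). When all MS67 peaks were ranked by −log10 q and divided into 5 equal parts, the sites made up 31.8% of the weakest part, then 25.0%, 17.9%, 14.3% and 6.37% of the strongest. These values come from the same library that chose the sites and are a description of them, without a test.

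**Figure D1:**
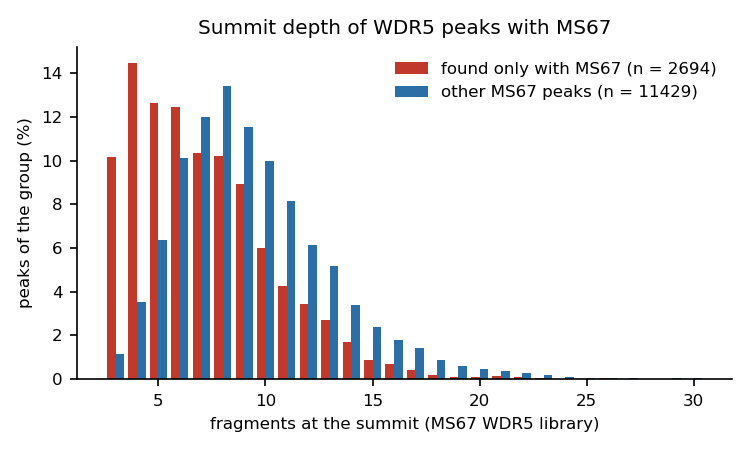
Share of peaks (vertical axis, %) by the number of fragments at the summit in the MS67 WDR5 library (horizontal axis, drawn up to 30 fragments), for the 2694 sites found only with MS67 and the 11429 other MS67 peaks. The sites peak at 4 fragments and have a median of 7, and the other peaks have a median of 9.

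Most sites were not close neighbours of a DMSO peak. The median gap to the nearest DMSO WDR5 peak was 17708 bp. It was up to 2 kb for 389 sites (14.4%), up to 10 kb for 1016 (37.7%) and over 100 kb for 318 (11.8%), and the longest was 978944 bp, for an intergenic site on chromosome 2 with 4 fragments. The limit of 1 kb itself falls among peaks of all strengths. Just inside the rule were sites at the promoters of the lncRNA genes ENSG00000272854, with a gap of 1003 bp and a −log10 q of 8.49, and ENSG00000291073, with a gap of 1005 bp and a −log10 q of 2.79. Just outside were a peak at the RIMKLB promoter with a gap of 999 bp and a −log10 q of 1.85, and a peak in an exon of ENSG00000272195 with a gap of 997 bp and a −log10 q of 3.44.

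A smaller share of the sites than of the other MS67 peaks lay at promoters, and a larger share lay in introns and between genes. A peak was placed at a promoter when its centre fell between 1000 bp before and 100 bp past a start site of a protein-coding or lncRNA gene. Promoters held 655 of the 2694 sites (24.3%, 95% interval 22.7 to 26.0%) and 4820 of the 11429 other MS67 peaks (42.2%, 41.3 to 43.1%). Introns held 1227 sites (45.5%), intergenic DNA 647 (24.0%) and exons 165 (6.13%), against 34.9%, 12.0% and 10.8% of the other MS67 peaks. The DMSO peaks stood closer to the sites than the other MS67 peaks did, with 27.7% at promoters, 43.7% in introns, 19.8% intergenic and 8.75% in exons. The intervals of the sites and of the other MS67 peaks did not overlap in any of the 4 classes, but peaks of 1 library are not replicates of a treatment, and the difference in promoter share was not the same at each strength. It was 19.2% of sites against 38.0% of other MS67 peaks at a −log10 q of 3 or less, and 29.0% against 43.1% from 3 to 5. Above 5 it was 74 of 148 sites (50.0%, 95% interval 41.7 to 58.3%) against 1112 of 2350 (47.3%, 45.3 to 49.4%), with intervals that overlap.

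**Figure D2:**
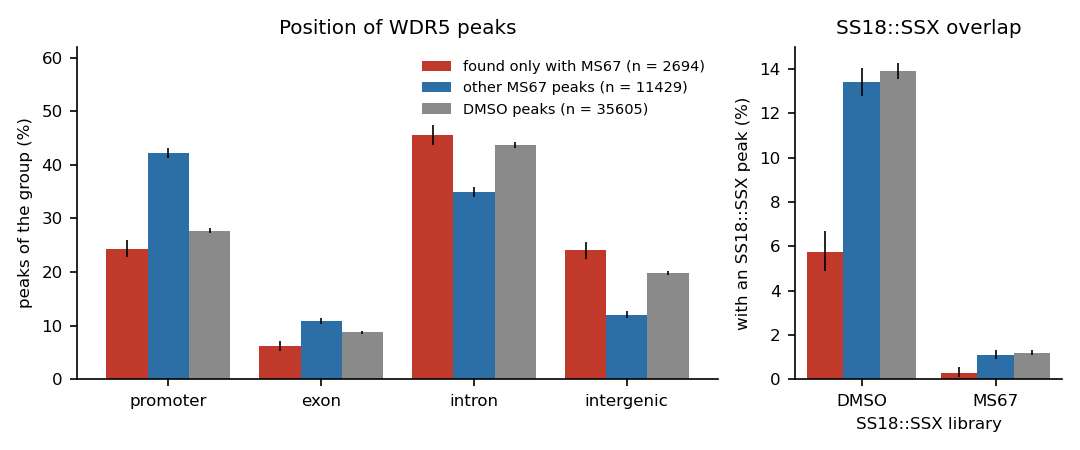
Left, share of WDR5 peaks (%) at promoters, in exons, in introns and between genes, for the sites found only with MS67, the other MS67 peaks and the DMSO peaks; right, share of the same peaks that overlap an SS18::SSX peak of the DMSO or the MS67 library. Error bars are exact 95% intervals; the sites have the lowest promoter share, 24.3%, and the lowest overlap with SS18::SSX DMSO peaks, 5.75%.

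Sites at promoters were a little stronger than the sites elsewhere. The 655 promoter sites had a median of 8 summit fragments, a fold of 4.82, a −log10 q of 3.09 and a width of 203 bp. The 2039 sites outside promoters had medians of 6 fragments, a fold of 4.33, a −log10 q of 2.65 and a width of 177 bp. Relative to the nearest start, the median centre of the promoter sites was at −250 bp (quartiles −475.5 and −3.5 bp), against −194 bp for the other MS67 promoter peaks. Of the promoter sites, 109 (16.6%, 95% interval 13.9 to 19.7%) had start sites on both strands in reach, as did 14.0% (13.0 to 15.0%) of the other MS67 promoter peaks.

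The promoter sites touched 764 genes, of which 605 were protein-coding and 159 were lncRNA genes. Among all 20033 protein-coding genes the share with such a site was 3.02%, and among the 4522 with any MS67 WDR5 peak at a promoter it was 13.4%. Both shares are set by the rule and serve as the background for the gene lists below. For 544 of the 605 protein-coding genes, no DMSO WDR5 peak and no other MS67 WDR5 peak lay at a promoter of the gene. The 1 kb rule itself excludes a DMSO promoter peak at the same start, so this count is a description. A DMSO WDR5 peak lay at another start of the same gene for 49. A site within reach of one gene can lie closer to the start of another: 497 of the 605 genes owned the start nearest to a site, and 123 promoter sites (18.8%) were shared by at least 2 genes.

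The highest-ranked promoter site was at ZNF622, which encodes a zinc finger protein of large ribosomal subunit maturation. It spanned chr5:16465354-16466098, was centred 74 bp downstream of the start, and held 22 fragments over a background of 1.74, a fold of 8.40 and a −log10 q of 11.7. Its 745 bp made it the widest of all the sites, and the nearest DMSO WDR5 peak was 8933 bp away. SSBP1, the mitochondrial single-stranded DNA-binding protein, followed with 12 fragments over 0.461 and a −log10 q of 9.08 at 97 bp downstream. The site 235 bp upstream of PIKFYVE, a kinase that makes an endosomal phosphoinositide, lay in the body of IDH1 and held 15 fragments over 0.938, with a −log10 q of 8.91.

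The rest of the 20 highest-ranked promoter sites had −log10 q values from 6.74 to 8.49 and 10 to 21 fragments. KDM5C, a demethylase that removes methyl groups from lysine 4 of histone H3, had a site 201 bp upstream of its start with 13 fragments over 0.868 and a −log10 q of 7.30. G3BP2, a stress granule protein, had 13 fragments over 0.722 centred 18 bp upstream. LSM5, part of the U6 small nuclear RNA-binding ring, and LUC7L2, a partner of the U1 particle, had sites with −log10 q of 7.60 and 6.95. The site at PGAP2 was shared with NUP98, a nuclear pore protein, and had a −log10 q of 7.52.

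TOR1AIP1, a protein of the inner nuclear membrane, had a 614 bp wide site with 16 fragments and a −log10 q of 8.06. COG5, a subunit of a Golgi tethering complex, had 14 fragments and a −log10 q of 7.15. The site of the lncRNA gene ENSG00000289982 was shared with UGGT1, a folding sensor of the endoplasmic reticulum, and had a −log10 q of 7.64. UFL1-AS1, antisense to the UFM1 ligase gene UFL1, had a site 315123 bp from the nearest DMSO peak. MYH10, a non-muscle myosin heavy chain, had a −log10 q of 6.74. The other sites of the 20 were at ENSG00000272854, TNS2-AS1, IRAK1BP1, ZNF76, CRYZL1 with ITSN1, OLA1, and BTK with RPL36A. The distance to the DMSO peaks varied widely here: 10 of the 20 sites had a DMSO WDR5 peak within 5 kb, and IRAK1BP1 had none within 237607 bp.

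Cytosolic ribosomal protein genes had a site at 9 of 79 promoters, or 11.4% (95% interval 5.34 to 20.5%), against 3.02% of all protein-coding genes. Of the 23 with any MS67 WDR5 promoter peak, these 9 were 39.1%, against 13.4% of all protein-coding genes with such a peak. None of the 9 had a promoter peak among the DMSO or the other MS67 WDR5 peaks, which the rule favours. RPL36A had the strongest, with 10 fragments over 0.461, a fold of 7.53 and a −log10 q of 6.77 centred 15 bp upstream of its start and 13 bp from that of BTK, which runs the other way. RPS4X followed with 6 fragments over 0.254 and a −log10 q of 4.10 at 190 bp upstream. RPL21, RPLP2, FAU and RPL4 had −log10 q values of 3.47, 3.28, 3.19 and 3.09 on 6 to 9 fragments. The remaining 3, RPS28, RPS13 and RPL9, named after their values were seen, had 2.58, 2.18 and 2.08 on 5 to 8 fragments. The nearest start was that of the ribosomal protein gene itself at 3 of the 9, RPS4X, RPLP2 and RPS13; the RPL4 site lay 435 bp from the start of ZWILCH, the FAU site 129 bp from that of MRPL49 and the RPL9 site 503 bp from that of LIAS. Mitochondrial ribosomal protein genes stood near the background, with sites at 3 of 78 (3.85%): MRPL50, MRPL51 and MRPL30, with −log10 q of 2.86 to 3.29.

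Proteasome subunit genes had sites at 5 of 39 (12.8%, 95% interval 4.30 to 27.4%), against 3.02% of all protein-coding genes. Cullin-RING ubiquitin ligase genes had sites at 5 of 29 (17.2%, 5.85 to 35.8%). Among genes with any MS67 WDR5 promoter peak, these were 35.7% of 14 and 50.0% of 10, against 13.4%. A link to the action of MS67 was not tested. PSMD14, the deubiquitinase of the proteasome lid, had 9 fragments over 0.615 and a −log10 q of 4.80, centred at −171 bp from its start and 49 bp from that of its divergent transcript PSMD14-DT. PSMD5, an assembly chaperone, had a −log10 q of 3.81, and PSMD7, PSMB1 and PSMA1 had 3.19, 2.69 and 2.53. Only the PSMD5 site, of these 5, had the proteasome gene's start as its nearest. CUL4A, a cullin scaffold, had 8 fragments over 0.715 and a −log10 q of 3.49. COPS2 and COPS8, of the signalosome that removes NEDD8 from cullins, had 2.75 and 2.43. ELOB, the elongin B adaptor that links VHL to its cullin, had a site at −845 bp from its start with 8 fragments over 0.984 and a −log10 q of 2.65, and RNF7, a RING subunit, had 7 fragments and a −log10 q of 2.61. Of these 5, CUL4A and RNF7 owned the nearest start; the COPS2 site lay 243 bp from the start of GALK2, the COPS8 site 397 bp from that of COPS8-DT and the ELOB site 815 bp from that of ENSG00000276791.

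Among the KMT2 complexes, 3 of 17 genes had a site (17.6%, 95% interval 3.80 to 43.4%), and WDR5 itself was one of them. The WDR5 site spanned chr9:134135213-134135561, was centred at −695 bp from the WDR5 start and 385 bp from that of its divergent transcript WDR5-DT, and held 7 fragments over 0.722, a fold of 4.64 and a −log10 q of 2.65. The nearest DMSO WDR5 peak was 29537 bp away. KDM6A, a demethylase of lysine 27 of histone H3, had 6 fragments over 0.661 at 780 bp upstream and a −log10 q of 2.08, and HCFC1, a host cell factor, had 9 over 1.71 and 1.86. All 3 were below a −log10 q of 3. The 28 SWI/SNF subunit genes had no site, with an exact 95% interval up to 12.3%. The 32 Polycomb genes had 1 (3.12%, against 3.02% of all protein-coding genes), at RING1, with a −log10 q of 2.43. WDR5 was also the sole gene with a site among the 10 synovial sarcoma genes named by the study.

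Stress and growth-arrest genes had 3 sites of 7 to 10 fragments. ATF4, the transcription factor of the integrated stress response, had 7 fragments over 0.891 centred 90 bp downstream of its start and a −log10 q of 2.18. DDIT3, its target CHOP, had 10 fragments over 2.12 and a −log10 q of 1.82, and the site was shared with MBD6. These were 2 of 27 genes of the list (7.41%, 95% interval 0.910 to 24.3%). In the list of p53 and its targets, 1 gene of 30 had a site (3.33%, 95% interval 0.08 to 17.2%). That was near the 3.02% of all protein-coding genes, and it was 10.0% of the 10 with any MS67 WDR5 promoter peak, against 13.4%. The gene was GADD45A, with 9 fragments over 0.738 and a −log10 q of 4.25 at 79 bp upstream. The 4 of 46 DNA replication and cell cycle genes (8.70%, 95% interval 2.42 to 20.8%, and 23.5% of the 17 with any MS67 WDR5 promoter peak) were E2F3, a transcription factor of S-phase entry, with a −log10 q of 4.64, the cyclins CCNA2 and CCNE1 with 2.44 and 2.33, and ORC4, of the origin recognition complex, with 2.38.

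DNA repair genes had sites at 4 of 53 (7.55%, 95% interval 2.09 to 18.2%), which were 16.7% of the 24 with any MS67 WDR5 promoter peak. For all protein-coding genes these shares were 3.02% and 13.4%. FANCM, a translocase at stalled forks, had 14 fragments over 1.28 and a −log10 q of 6.44, and ERCC5, a nuclease of nucleotide excision repair, had 9 over 0.707 and 4.38. ATM, the kinase of the double-strand break response, and XRCC3, a homologous recombination protein, had 2.93 and 1.99. Among tubulin, kinetochore and centrosome genes, 5 of 78 (6.41%, 2.11 to 14.3%, and 18.5% of 27) had sites: CEP97 with 4.80, and CENPQ, CENPH, CENPC and CEP78 with −log10 q of 2.28 to 3.92. RAB GTPase genes, which direct vesicle traffic, had 4 of 63 (6.35%, 1.76 to 15.5%, and 22.2% of 18), with RAB13 at 5.91, RAB33B at 5.28, RAB30 at 3.34 and RAB18 at 1.31. The intervals of the DNA repair, centrosome and RAB lists all include the 3.02% of all protein-coding genes.

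The C2H2 zinc finger genes, the largest list, were at the background. They had sites at 19 of 596 (3.19%, 95% interval 1.93 to 4.93%), against 3.02% of all protein-coding genes. Apart from ZNF622 and ZNF76, the strongest of these were ZNF398 with 16 fragments over 1.78 and a −log10 q of 6.44, ZBTB11 with 4.99, ZNF569 with 4.67 and ZNF81 with 4.56. Solute carriers had 8 of 338 (2.37%), led by the mitochondrial carriers SLC25A26 with 5.33 and SLC25A40 with 3.92, then by SLC39A9, SLC30A5, SLC25A44 and SLC20A1 with 2.56 to 3.68. Respiratory chain genes had 3 of 86 (3.49%), NDUFB1, NDUFA10 and SDHD, with 4.60, 3.28 and 2.22. Spliceosome genes had 2 of 39 (5.13%), SNRPA and SRSF3, with 2.26 and 1.97.

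Few developmental transcription factor genes had any MS67 WDR5 promoter peak: 8 of 102 homeobox genes and 7 of 84 SOX, forkhead and T-box genes. Of all 20033 protein-coding genes, 4522 had one. The homeobox genes had sites at 2 (1.96%, 95% interval 0.240 to 6.90%, against 3.02%, and 25.0% of the 8, against 13.4%), among them HOXD11, with 11 fragments over 1.91 and a −log10 q of 2.69. The SOX, forkhead and T-box genes had 1 (1.19% of 84 and 14.3% of the 7), FOXP1, with 13 fragments over 1.72 and a −log10 q of 4.37, at a site 63 bp from the start of the lncRNA gene ENSG00000277855. The 80 histone genes had none, with an exact 95% interval up to 4.51%.

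**Figure D3:**
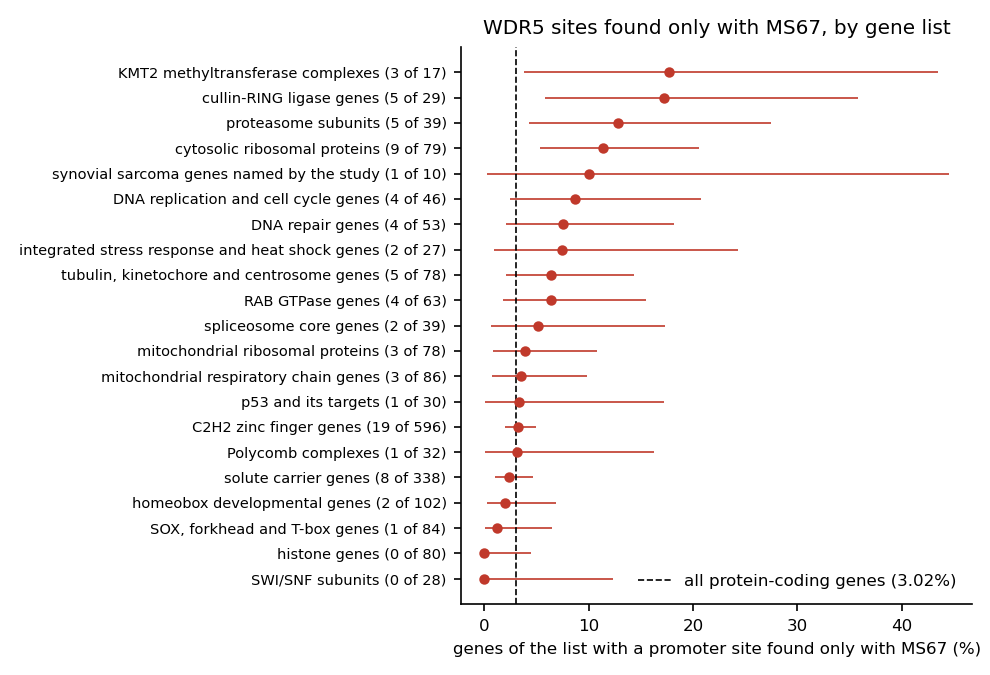
Share of genes of each list (horizontal axis, %) with a site found only with MS67 at a promoter; points are shares, bars are exact 95% intervals, and the dashed line is the 3.02% of all protein-coding genes. The intervals of the KMT2, cullin-RING, proteasome and cytosolic ribosomal protein lists lie above the line, on 3, 5, 5 and 9 genes.

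The lists are short, and the counts above are given beside the background without a test. At a −log10 q above 3, 333 of the 20033 protein-coding genes had a site at a promoter. By list, it was 6 of 79 cytosolic ribosomal protein genes and 3 of 39 proteasome genes. It was 1 of 29 genes of the cullin-RING list and 0 of 17 of the KMT2 list.

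Outside promoters, the sites were far from start sites. The median distance to the nearest start was 20539 bp for the 2039 sites and 1349 bp for the 6609 other MS67 peaks outside promoters. For the DMSO WDR5 peaks outside promoters it lay between, at 7352 bp. Within 1 kb of a start lay 272 of the sites (13.3%, 95% interval 11.9 to 14.9%) and 43.1% (41.9 to 44.3%) of the other MS67 peaks. From 10 to 50 kb lay 703 sites (34.5%) against 21.8%, and beyond 100 kb 283 sites (13.9%) against 4.34%.

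The 10 highest-ranked sites of this kind are given by their distance from a start, and do not stand for the whole group. Some were close behind a start, at 118 to 501 bp, past the 100 bp limit that defines a promoter here. ERGIC2, a protein that shuttles between endoplasmic reticulum and Golgi, had such a site at chr12:29380649-29381108, with 12 fragments over 0.415, a fold of 9.19 and a −log10 q of 9.55. BBS5, a subunit of the ciliary BBSome, had 10 fragments over 0.415 and a −log10 q of 7.17 in a 708 bp wide site. AKAP7, an anchor of protein kinase A, CDK9, the kinase that releases paused RNA polymerase II, and DYNC2I1, a chain of the ciliary dynein, had 6.95, 6.71 and 6.67.

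The others of these 10 were farther from starts, at 1038 to 280880 bp. The site in the intron shared by DIPK2B and ENSG00000229491 (chrX:45187156-45187352) was 4003 bp from the nearest start and 663490 bp from the nearest DMSO WDR5 peak, and held 10 fragments over 0.215, a fold of 9.05 and a −log10 q of 9.63. The site in AUTS2, a neurodevelopmental gene, was 280880 bp from a start and had 11 fragments over 0.569 and a −log10 q of 7.07. CENPV and DGKD had intron sites 1087 and 1038 bp from their starts, with −log10 q of 7.81 and 6.76, and each had a DMSO WDR5 peak within 2 kb. The site in PAG1 and ENSG00000254177 was 3138 bp from a start, with a −log10 q of 6.92.

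A smaller share of the sites than of other WDR5 peaks overlapped SS18::SSX. The SS18::SSX libraries were not used in choosing the sites, but the rule does shape the comparison. It defines the other MS67 peaks as those within 1 kb of a DMSO WDR5 peak. Overlap was counted from 1 bp, and the sites were narrower. Their median width was 181 bp, against 248 bp for the other MS67 peaks and 302 bp for the DMSO WDR5 peaks. The part of width in the overlap was not tested. An SS18::SSX peak of the DMSO cells overlapped 155 sites (5.75%, 95% interval 4.90 to 6.70%), 1534 of the other MS67 peaks (13.4%, 12.8 to 14.1%) and 13.9% of the DMSO WDR5 peaks. The order was alike at promoters, with 33 of 655 sites (5.04%) against 10.6%, and outside them, with 122 of 2039 (5.98%) against 15.4%. By strength, it was 4.87% of sites against 12.0% of other MS67 peaks at a −log10 q of 3 or less, 7.10% against 13.5% from 3 to 5, and 10 of 148 (6.76%, 3.29 to 12.1%) against 370 of 2350 (15.7%, 14.3 to 17.3%) above 5. These are overlaps within 1 library each, so the intervals carry counting error and no spread between cultures. The strongest sites with an SS18::SSX DMSO peak were at TOMM70, a mitochondrial import receptor whose neighbour LNP1 was nearer, with a −log10 q of 6.39, and at EPS15-AS1 with 6.04. FAM234A, SNRNP48, THRB, a thyroid hormone receptor, and ENSG00000248115 followed with 5.62 to 5.99.

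With MS67, 1175 SS18::SSX peaks were called, and 7 of the 2694 sites overlapped one (0.260%, 95% interval 0.104 to 0.535%), against 126 of the other MS67 peaks (1.10%). None of the 655 promoter sites did, with an exact 95% interval up to 0.562%. The 7 sites were in or near MUC6, ENSG00000286008, ONECUT1, TTLL6, NFATC1, ENSG00000286186 and SLC1A3, and were named after their overlap was seen. Their −log10 q ranged from 1.76 at ONECUT1, a developmental transcription factor gene, to 4.38 at TTLL6, a tubulin-modifying enzyme gene. At 5 of the 7, an SS18::SSX peak was also called with DMSO, and the exceptions were TTLL6 and NFATC1.

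The sites were less GC-rich than the other MS67 peaks, and the difference lay mostly outside promoters. In the 300 bp around the summit, the median GC content was 63.3% for promoter sites and 65.3% for the other MS67 promoter peaks. For the DMSO promoter peaks it was 62.3%, below the promoter sites. Outside promoters it was 51.0% (quartiles 45.7 and 58.0%) against 60.3% (54.0 and 66.7%), with a median of 4 CpG dinucleotides against 12. The DMSO peaks outside promoters lay between, at 55.3%, and the 35116 promoters of RefSeq (GRCh38.p14), of the same length, had a median of 58.7%.

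**Figure D4:**
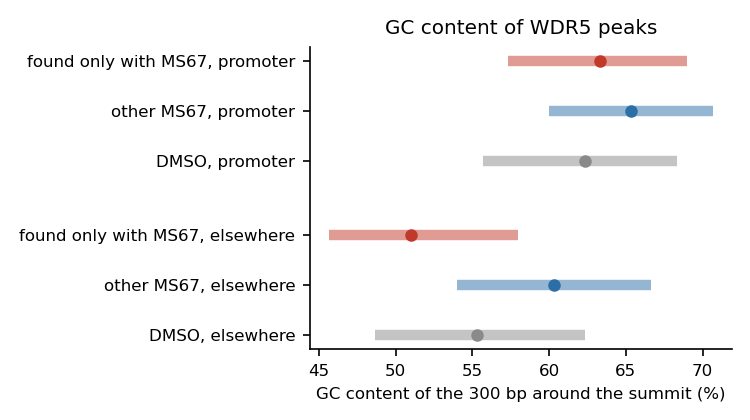
GC content (%) of the 300 bp around the summit, with the median as a point and the quartiles as a bar, for WDR5 peaks at promoters (upper 3 rows) and elsewhere (lower 3 rows). Promoter sites found only with MS67 have a median of 63.3% and those elsewhere 51.0%, the lowest of the 6 groups.

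The G- and C-rich SP/KLF and ETS motifs were in a smaller share of the sites than of the other MS67 peaks, chiefly outside promoters. Exact matches were counted on both strands of the same 300 bp windows, and overlaps between motifs were allowed. The SP/KLF box GGGCGG was in 53.1% of promoter sites (95% interval 49.2 to 57.0%) and 60.1% of the other MS67 promoter peaks, and in 15.1% of sites outside promoters against 36.4%. It was in 44.9% of all RefSeq promoters, and in 50.1% of the DMSO peaks at promoters and 23.4% of those outside. The ETS core CCGGAA was in 18.6% of promoter sites and 19.9% of the other promoter peaks, against 17.2% of all promoters, and in 5.10% of sites elsewhere against 10.2%. Among the DMSO peaks it was in 14.05% at promoters and 6.86% outside them. The YY1 motif ATGGCGG was in 7.02% of promoter sites (95% interval 5.19 to 9.26%) against 5.75% (5.11 to 6.44%) of the other MS67 promoter peaks.

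Outside promoters, some motifs less rich in G and C were in a larger share of the sites, though not the CRE TGACGT. The CRE was in 2.99% of the sites (95% interval 2.30 to 3.83%) against 3.72% (3.28 to 4.21%) of the other MS67 peaks, with intervals that overlap. The CCAAT box was in 28.3% of those sites (95% interval 26.4 to 30.3%) and 21.7% of the other MS67 peaks outside promoters. It was in 25.9% of the DMSO peaks outside promoters and in 34.6% of all promoters. The TEAD motif GGAATG was in 20.4% (18.6 to 22.2%) against 15.3%, with 14.0% of all promoters, and in 16.9% of the DMSO peaks outside promoters. The AP-1 motif TGANTCA was in 8.88% (7.68 to 10.2%) against 5.72%, with 7.71% of all promoters, and in 7.67% of the DMSO peaks outside promoters. At promoters the AP-1 and TEAD shares of the sites were 4.58% and 12.4%, within 1 percentage point of the other MS67 promoter peaks. The CTCF core AGGGGGCGC was rare, in 1.22% of promoter sites and 0.440% of sites elsewhere. GC content moved with these shares, and its part in them was not tested.

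**Figure D5:**
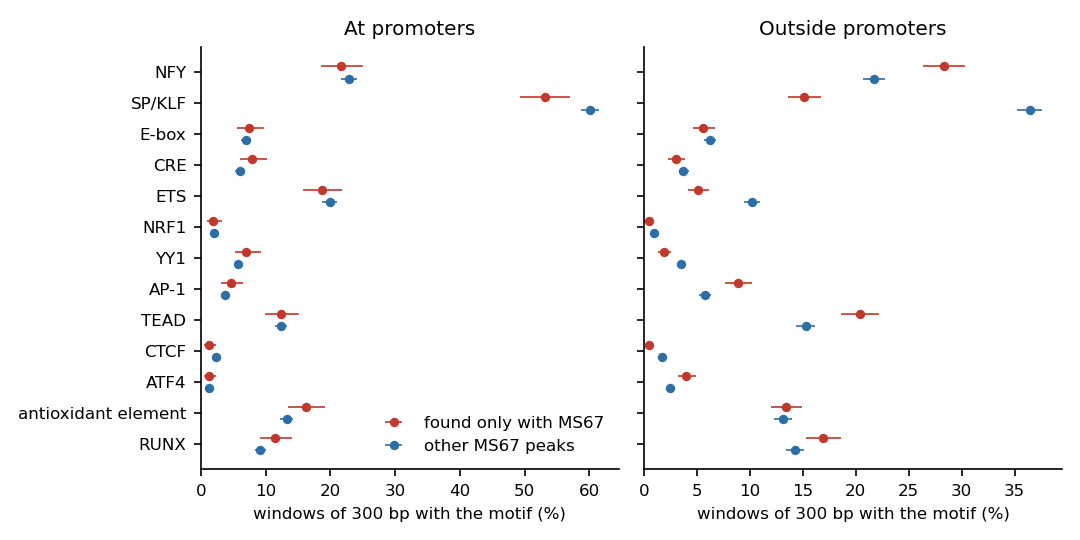
Share of 300 bp windows (horizontal axis, %) that hold each of the 13 motifs, at promoters (left) and outside them (right), for sites found only with MS67 and other MS67 WDR5 peaks; bars are exact 95% intervals, and the 2 panels have different scales. Outside promoters the SP/KLF share is 15.1% for the sites and 36.4% for the other peaks.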

How the data were processed

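CUT&RUN libraries of HSSY II cells, 1 per antibody and treatment, were analysed from the peak lists, with samples grouped by their labels. The sources name hg38 and mm10, and per the labels the submitters' notes list SAMtools (v1.9), Picard, bedtools (v2.28.0), MACS2 and deepTools (v3.3.0). The MACS2 options and control were not given in the sources used here. Peaks were called per library. The deposited lists hold each peak's fold enrichment over the local background at the summit, the deposited −log10 p-value and −log10 q-value, and a deposited score, which was not used. Spike-in scaling does not enter these values.

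Summit fragments and background were solved from the deposited fold, (fragments + 1)/(background + 1), and the Poisson −log10 p, which fitted 100% of peaks within 0.001. The lowest background was read as the library's coverage. Start sites were the 84769 basic ones of GENCODE release 44 (hg38), and promoter sequences were those of RefSeq. Python (v3.11.15), pandas (v2.3.3), scipy (v1.17.1) and pysam (v0.24.0) were used, and the recovery was tested on simulated data. With 1 library per condition no test was run; the precision of each share is its exact interval. Alternatives for the gap, peak strength, promoter window and overlap were tried.

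The sites and the 21 gene lists were chosen with earlier results of these data known. Genes named were those at the 20 promoter sites of highest −log10 q, the nearest gene at the 10 highest outside promoters, up to 6 genes per list, and those at the 2 sites on each side of the limit of 1 kb. Sites overlapping SS18::SSX were named after their values were seen. Shares within ranges of −log10 q were added after the values were seen. Repeat content was not analysed here. One gene that the naming rule covers is not reported here.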

Additional observations from a re-analysis of the deposited data

How the results depend on the processing

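No paired analysis was possible because each condition is 1 library. The sites numbered 2694, 19.1% of the MS67 WDR5 peaks, with 24.3% at promoters and 5.75% overlapping an SS18::SSX DMSO peak; of 34 alternative values of these 4 results, 9 stayed within counting error or 1.5 times the count and 25 moved. Requiring only that no DMSO peak overlapped gave 5029 sites (35.6%), with 34.4% at promoters and 6.76% with SS18::SSX, and a gap of 5 kb gave 14.4%, 19.8% and 4.34%. With MS67 peaks of −log10 q above 3, there were 1092 sites (12.9%), with 31.9% at promoters and 7.05% with SS18::SSX. Above 5, there were 148 sites (5.92%), with 50.0% at promoters and 6.76% with SS18::SSX. Limits chosen after seeing the data, a −log10 q above 3 and a fold above 6, left 180 sites (6.85%), 50.0% of them at promoters. Merging neighbouring peaks gave 20.9%. The promoter share was 34.4% for 1 kb on either side of a start, 33.7% for 2000 bp upstream to 500 bp downstream, 20.6% for protein-coding genes alone and, added after seeing the data, 28.6% for all transcripts. The SS18::SSX share was 11.7% within 1 kb and 3.94% for SS18::SSX peaks with −log10 q above 3. Leaving out the 100 bins of highest background, which held 208 sites (7.72%) and 9.07% of the other MS67 peaks, moved none of the 4 results. The depth of the MS67 WDR5 library limits every value: 2297 of the sites had 10 or fewer fragments at the summit.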

Other observations

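The sites were mostly solitary. With a reach of 20 kb, 2412 stood alone, 130 pairs and 6 runs of 3 formed, and 1 run of 4 lay near KIAA0087 on chromosome 7 (chr7:26493192-26519224). The runs of 3 included POLR3B, a subunit of RNA polymerase III, over 3400 bp, LPIN2, a phosphatidate phosphatase, over 1476 bp, and the divergent pair PSMB1 and TBP over 1242 bp.

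The share of MS67 WDR5 peaks that were found only with MS67 differed between chromosomes. Among the autosomes, it was highest on chromosome 4, with 144 of 447 peaks (32.2%, 95% interval 27.9 to 36.8%), and on chromosome 13, with 89 of 288 (30.9%, 25.6 to 36.6%). On chromosome 19 it was 79 of 856 (9.2%, 7.4 to 11.4%). Across these chromosomes, sites per Mb ran the other way, at 0.757, 0.778 and 1.35 on chromosomes 4, 13 and 19. It was not so everywhere, as chromosome 22 had a share of 12.8% and 0.748 sites per Mb. DMSO WDR5 peaks numbered 1261, 800 and 1942 on chromosomes 4, 13 and 19, and their part in the shares was not tested. No test was run across chromosomes.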
